A study of Drosophila melanogaster with 3 samples.

Results

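The genes described here are 10 Drosophila transcription factor genes of the mesoderm and of the muscles and heart that form from it: twi, zfh1, Mef2, nau, tin, bap, Doc3, H15, mid and lbe. They were chosen by name, with earlier results of these data known, and are 10 of 13945 protein-coding genes on the 6 large chromosome arms. A peak was given to one of them when its summit, the base of highest enrichment, had that gene's annotated start as the nearest start of any protein-coding gene, or lay within the gene body. By this rule the genes held 8 of the 3688 peaks in the authors' thresholded ("optimal") list. The data were peaks of chromatin immunoprecipitation with sequencing (ChIP-seq), which counts the DNA fragments that an antibody brings down with a tagged protein. The flies were a transgenic line with green fluorescent protein (GFP) fused to the C-terminus of CG4328, a LIM-homeodomain transcription factor, and the antibody was directed against GFP. Whole embryos of both sexes, 8 to 24 h old, gave 1 group of 3 biological replicates (CG4328-GFP ChIP), with no treated or mutant group and no control library analysed here. The promoter that drives the fusion is not given in the sources used here, and peaks from whole embryos do not tell which cells the protein was bound in.

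The mesoderm of the fly embryo is set up by Twist (twi), a basic helix-loop-helix activator, and is then divided into heart, gut muscle, body wall muscle, fat body and other tissues. Mef2, a MADS-box factor, turns on muscle differentiation genes in all muscle types, and nau is the fly member of the MyoD family, which acts in subsets of body wall muscles. Zfh1 is a zinc finger and homeodomain repressor of mesodermal cells and motor neurons. The homeodomain factor Tinman (tin) is needed for the heart and the dorsal mesoderm, Bagpipe (bap) for the gut muscle, and Ladybird early (lbe) for the identity of certain heart cells and body wall muscles. Doc3, H15 and mid encode T-box factors with roles in the heart, and in other tissues outside the mesoderm. These descriptions are background and not results of these data.

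The best optimal peak of zfh1, tin, nau and mid is shown first, as 201 bases of the release 6 (dm6) genome centred on the summit, because these sequences are the ones the highest-ranked peaks of these genes lie on. The best Mef2 peak, at rank 769, is not shown as sequence, and its motif matches are given below. All are the plus strand, 5′ to 3′, in lower case, and capitals mark matches to the 12 motifs that were searched on both strands. Peak ranks in parentheses run from 1, the highest deposited signal value of the pooled list.
zfh1 (intron, rank 514, chr3R:30781664-30781864): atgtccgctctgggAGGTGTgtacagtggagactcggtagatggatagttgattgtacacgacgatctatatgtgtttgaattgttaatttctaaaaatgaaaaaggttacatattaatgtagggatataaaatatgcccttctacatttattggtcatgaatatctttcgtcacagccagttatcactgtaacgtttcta
tin (promoter, rank 1196, chr3R:21378711-21378911): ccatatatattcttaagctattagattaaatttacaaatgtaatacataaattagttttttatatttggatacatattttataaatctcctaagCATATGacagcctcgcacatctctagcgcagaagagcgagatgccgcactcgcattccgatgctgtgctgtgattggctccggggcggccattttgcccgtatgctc
nau (promoter, rank 1823, chr3R:23718638-23718838): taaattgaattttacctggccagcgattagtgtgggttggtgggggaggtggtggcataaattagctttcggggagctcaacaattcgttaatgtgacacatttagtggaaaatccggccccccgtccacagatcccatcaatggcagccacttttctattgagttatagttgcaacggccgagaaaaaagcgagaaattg
mid (intergenic, rank 3462, chr2L:5476832-5477032): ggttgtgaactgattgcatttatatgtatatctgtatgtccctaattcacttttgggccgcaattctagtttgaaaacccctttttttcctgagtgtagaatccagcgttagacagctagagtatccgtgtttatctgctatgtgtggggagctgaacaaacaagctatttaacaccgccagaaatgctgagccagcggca
In the zfh1 window the capitals are AGGTGT, a core sequence bound by T-box factors, from 86 to 81 bases before the summit. In the tin window they are CATATG, an E-box of the kind bound by Twist, from 6 to 1 bases before the summit. The nau and mid windows held no match to any of the 12 motifs.

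Of the 10 genes, 5 had an optimal peak: zfh1, Mef2, tin, nau and mid. Among all protein-coding genes, 2779 of 13945 had one (19.9%). The other 5 genes, twi, bap, Doc3, H15 and lbe, had none. Mef2 held 4 of the 8 peaks and each of the other 4 genes held 1. The territory of a gene means its body together with the genome nearest to its starts, the stretch in which a summit is assigned to it. Of the 10 genes, 6 (zfh1, Mef2, mid, twi, H15 and lbe) were among the 3486 genes with the longest territories, from 12.021 kb up. Of these 6 genes 3 had an optimal peak, against 1148 of those 3486 genes (32.9%). The remaining genes, tin, nau, bap and Doc3, were among the 3486 genes with the next longest, from 5.203 to 12.011 kb, and 2 of the 4 had one, against 708 of those genes (20.3%). With so few genes, chosen with earlier results of these data known, the counts are a description, and no test was made. The optimal list was the top 3688 of the pooled list, so a peak needed no support of its own in each replicate to enter it.

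In the relaxed lists, which hold 30000 peaks each and include background, most of the genes had at least 1 peak. The pooled list gave 81 peaks to 9 of the 10 genes, all but lbe, against 8735 of all genes with a pooled peak (62.6%). Replicate 1 gave 62 peaks to 8 of the 10 genes, against 64.3% of all genes with a peak in that list. Replicate 2 gave 84 peaks to all 10, against 62.3% of all genes, and replicate 3 gave 106 peaks to all 10, against 62.9%. Among the 3688 highest peaks of each replicate, the depth of ranking at which the optimal list ends, 4 of the 10 genes had a peak, but not the same 4 in all replicates. These were zfh1, Mef2, tin and nau in replicate 1, against 19.6% of all genes, and the same 4 in replicate 2, against 19.3% of all genes. In replicate 3 they were zfh1, Mef2, mid and twi, against 20.1% of all genes, and the twi peak counted through its gene body alone. Only zfh1 and Mef2 thus passed that rank in all 3 replicates. Leaving out a replicate, and asking that an optimal peak lie in the top 3688 of both others, left 4 peaks in 2 genes without replicate 1, 4 peaks in 2 genes without replicate 2 and 7 peaks in 4 genes without replicate 3.

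**Figure D1:**
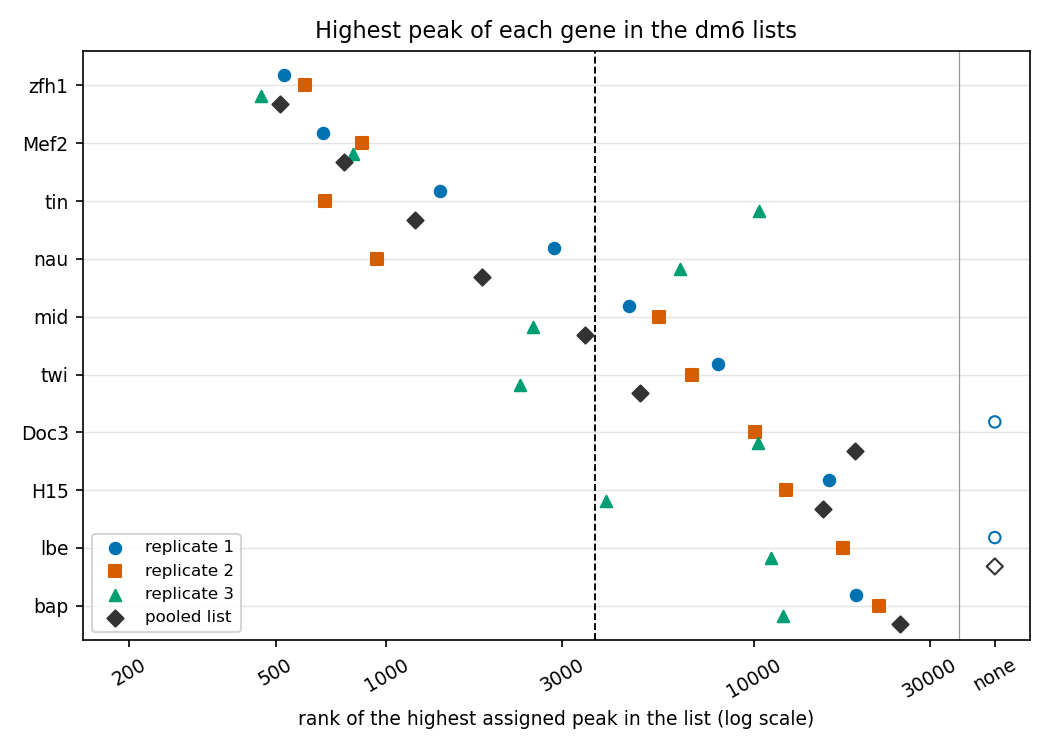
Rank of the best peak of each of the 10 genes, 1 gene a row, in each of the 3 replicate lists and in the pooled list, on a horizontal log axis with the highest-ranked peaks to the left; the dashed line marks rank 3688, the length of the optimal list, and open symbols at "none" stand for a list in which the gene had no peak. In the replicate lists the zfh1 ranks lie between 456 and 599 and the Mef2 ranks between 674 and 856, while H15, Doc3, lbe and bap lie to the right of the line in every list.

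Ordered by the median of its best ranks in the 3 replicates, zfh1 came first at 527, then Mef2 at 811, tin at 1399, nau at 2854, mid at 4555, twi at 6772, Doc3 at 10248, H15 at 12156, lbe at 17435 and bap at 18919. For Doc3 and lbe a replicate without a peak was counted as lower than any rank. The ranges of zfh1 and Mef2 did not overlap, and neither did those of twi and Doc3. The place of twi rests on peaks in its gene body that are nearest to another gene. By nearest start alone its ranks were 13393 and 15865 in replicates 2 and 3, with no peak in replicate 1, lower than those of Doc3 in the same replicates, and without a separation of the ranges, since Doc3 had no peak in replicate 1 either. All other neighbours in the order had overlapping ranges over the replicates, so their order was within the spread between replicates. The plot of best ranks shows how wide that spread was for tin, which lay at 680 in replicate 2 and at 10272 in replicate 3.

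zfh1 (FBgn0004606, 3R, 30765926 to 30789202, plus strand) had the highest peak of the 10 genes. It spans 30781672 to 30781873 and its summit, at 30781764, lies in an intron, 1494 bp upstream of an internal annotated start. The peak ranked 527 in replicate 1, 599 in replicate 2 and 456 in replicate 3. Its deposited signal value was 424.7 in the pooled list, and 141.6, 166.6 and 114.0 in replicates 1, 2 and 3, on scales that are not stated and are not comparable between lists. The 3 replicates placed it alike, since their summits lay 1, 0 and 12 bp from the pooled one. Of all protein-coding genes, 3.67% had an optimal peak of this rank or higher. Of the 3 zfh1 transcripts, 2 span the summit and 1 starts downstream of it. The next zfh1 peaks in the pooled list were far lower, at rank 6218 in an intron 1436 bp downstream of the nearest start and at rank 6502, 6684 bp upstream of the gene's starts. In all, zfh1 held 16 pooled peaks, or 4.12 per 10 kb of territory, against 2.24 per 10 kb over all arms. The 10 genes together had 2.55 per 10 kb, and the density differed widely among them, with 5.57 for nau, 3.48 for tin, 3.43 for Doc3, 3.18 for mid, 0.963 for bap, 0.864 for H15, 0.763 for twi and 0 for lbe.

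Mef2 (FBgn0011656, 2R, 9913496 to 9958858, minus strand) had 4 optimal peaks and the most pooled peaks of the 10 genes, 28. That was 6.13 pooled peaks per 10 kb of territory, against 2.24 over all arms. The 4 optimal peaks, numbered here by rank, all lie inside the gene, 3 of them in introns and 1 in an exon, and none within 500 bp of an annotated start. Mef2 peak 1, at 9949086 to 9949307 and 4460 bp upstream of the nearest internal start, ranked 674 in replicate 1, 856 in replicate 2 and 811 in replicate 3. Mef2 peak 3, at 9942743 to 9943192, lies in a 5′ UTR exon 1796 bp downstream of a start, and ranked 2409, 1498 and 1999 in replicates 1, 2 and 3. Both were thus within the top 3688 of every replicate.

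Mef2 peak 2, at 9955339 to 9955788, is intronic, 3294 bp into the gene from a start, and was uneven between replicates. It ranked 817 in replicate 1, 1959 in replicate 2 and 22925 in replicate 3. Mef2 peak 4, at 9949202 to 9949651, overlaps peak 1 by 106 bp, with summits 203 bp apart. The highest-ranked replicate peaks that overlap it are those of peak 1, so its support as counted here is not separate from that of peak 1. The records closest to its own summit ranked 4194, 2233 and 12916 in replicates 1, 2 and 3, and only that of replicate 2 was within the top 3688. Replicate 3 also held a record at rank 2073, within the top 3688, that overlaps peak 4 but not peak 1. The summit of that record lay 318 bp from that of peak 4. Overlapping neighbours are common in these lists: 245 pairs of optimal peaks overlap, with a median distance of 204 bp between summits. The Mef2 peaks thus amount to 3 separate regions.

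**Figure D2:**
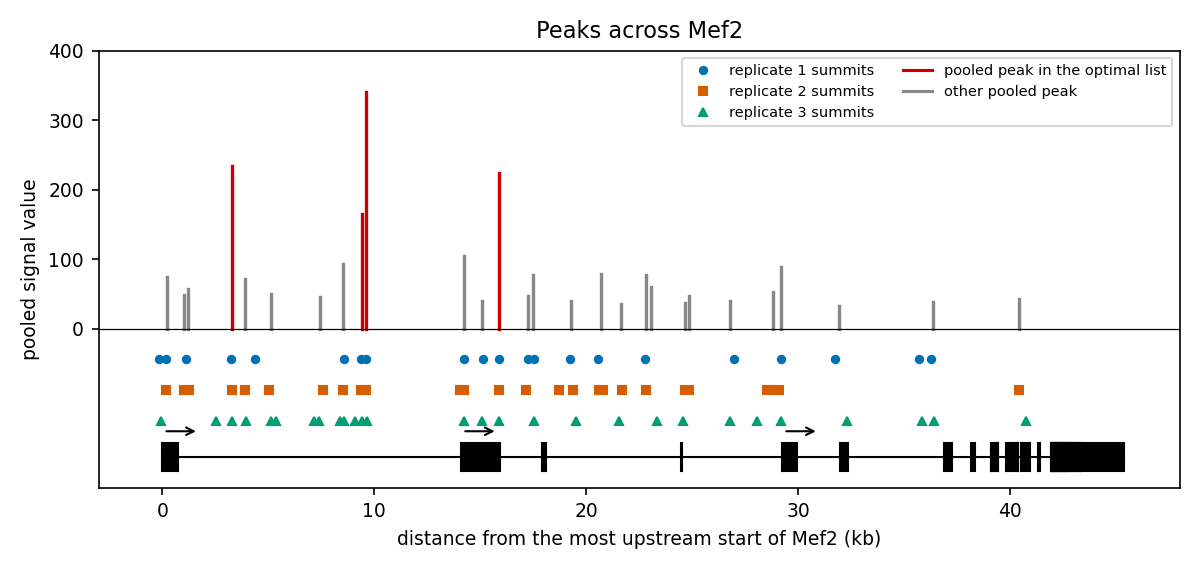
Map of Mef2 peaks, with distance in kb from its most upstream start on the horizontal axis and transcription running to the right; vertical lines give the deposited signal value of each pooled peak (red for optimal peaks, grey for the rest), the symbols below mark the summits of each replicate list, arrows mark annotated starts and black boxes exons. The 4 red lines, all inside the gene, reach signal values of 340.7, 234.5, 224.0 and 165.1.

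nau (FBgn0002922, 3R, 23712814 to 23718357, minus strand) had 1 optimal peak, in its promoter. It spans 23718513 to 23718962, with its summit 381 bp upstream of the start. In replicate 1 the overlapping peak ranked 2854 with a summit 132 bp away, in replicate 2 it ranked 941 with a summit 3 bp away, and in replicate 3 it ranked 6264 with a summit 11 bp away. Replicates 1 and 2 thus held an overlapping peak within the top 3688 and replicate 3 did not. A second pooled peak of nau, 583 bp upstream of the start, ranked 4225, the highest of the 10 genes' pooled peaks outside the optimal list. It overlaps the first, and the replicate 1 summit lies closer to it, at 70 bp, so the support by replicate 1 is shared between both. The lowest optimal peak had a deposited signal value of 130.9 and that nau peak 119.2, while the lowest optimal peak of these genes, that of mid, had 136.2. In the pooled list nau held 4 peaks, 1 of them in its body but nearest to the start of CG10300.

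tin (FBgn0004110, 3R, 21378977 to 21381970, plus strand) also had 1 optimal peak in its promoter, at 21378586 to 21379035, with its summit 166 bp upstream of the start. It ranked 1399 in replicate 1 and 680 in replicate 2, with deposited signal values of 84.1 and 156.7. Replicate 3 had no overlapping peak anywhere in its list of 30000. The best tin peak in replicate 3 was a different one, 3546 bp downstream of the start, at rank 10272. The tin promoter peak was therefore held by 2 replicates, and among all optimal peaks 86.4% overlapped a peak of replicate 3.

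mid (FBgn0261963, 2L, 5461639 to 5467610, plus strand) had the lowest of the 8 optimal peaks, at rank 3462 of 3688. It spans 5476707 to 5477156 in intergenic sequence, 15293 bp downstream of the start and 9322 bp beyond the gene. The overlapping peaks ranked 5800, 5797 and 2499 in replicates 1, 2 and 3, so that only replicate 3 held it within the top 3688. The deposited −log10 q of these overlapping peaks was 2.23, 3.11 and 0.966, and so was lowest in replicate 3. In replicates 1 and 2 the best mid peak was another one, 7270 and 7232 bp downstream of the start, at ranks 4555 and 5509. When genes of every biotype were allowed as the nearest, the optimal peak went to a long noncoding RNA gene, lncRNA:CR45287, 9973 bp away. H15, the neighbouring T-box gene (FBgn0016660, 2L, 5404280 to 5416593, plus strand), had no optimal peak. Its best ranks were 15933, 12156 and 3957 in replicates 1, 2 and 3, each at a different place. The best pooled H15 peak, at rank 15384, lay at 5421384 to 5421833 in intergenic sequence, 16976 bp downstream of the nearest start, with a deposited signal value of 49.7.

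**Figure D3:**
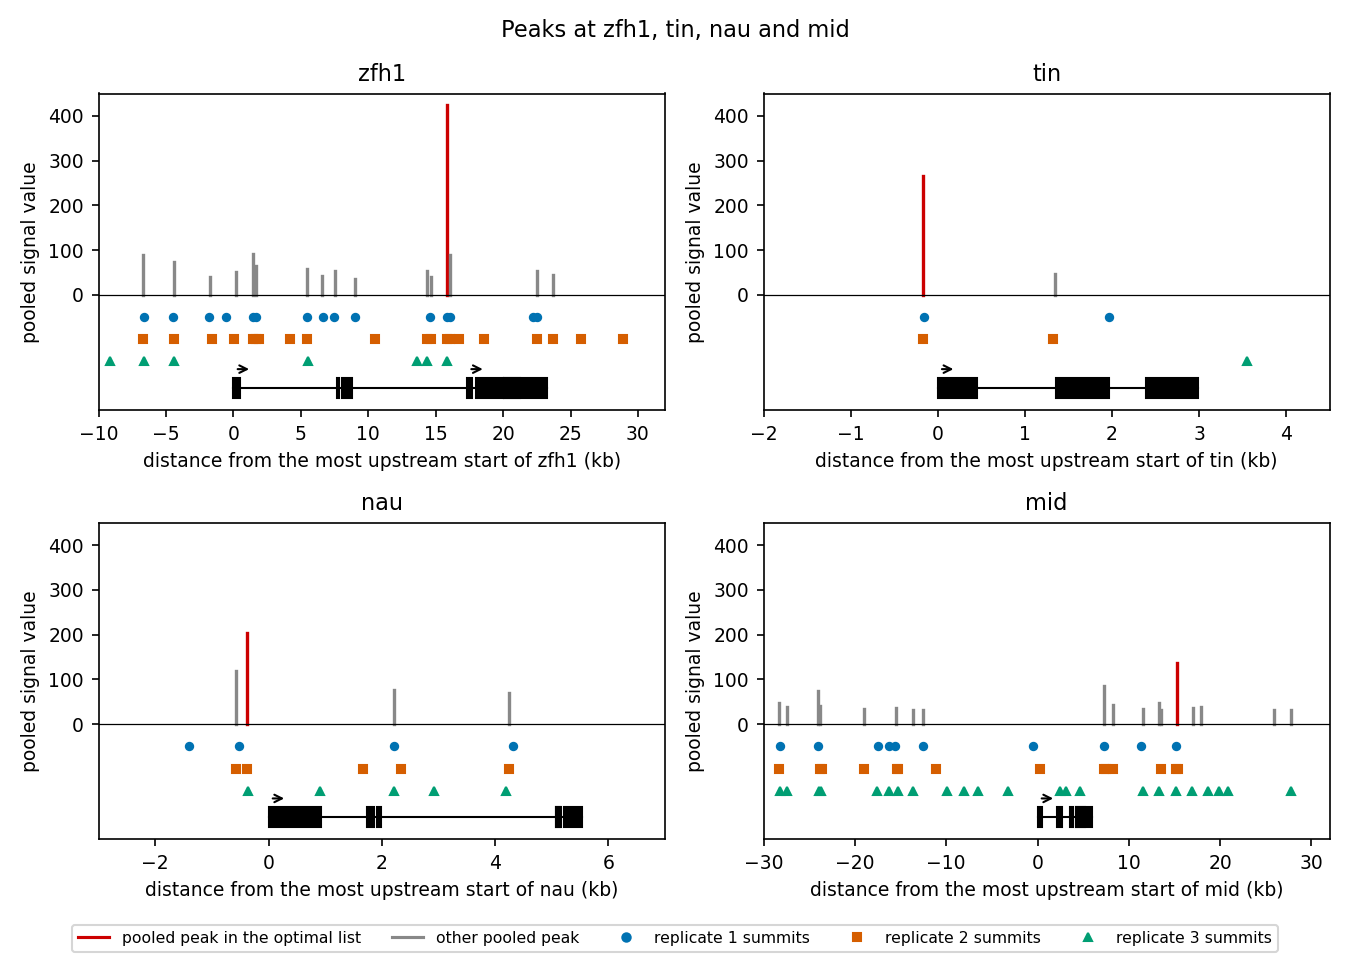
Peaks assigned to zfh1, tin, nau and mid, with distance in kb from the most upstream start of each gene on the horizontal axis and transcription running to the right; vertical lines give the deposited signal value of each pooled peak (red for optimal peaks, grey for the rest), the symbols below mark the summits of each replicate list, arrows mark annotated starts and black boxes exons. The red lines of tin and nau stand 166 and 381 bp upstream of the starts, that of zfh1 within the gene and that of mid 15293 bp downstream of its start.

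twi (FBgn0003900, 2R, 22985374 to 23048325, plus strand) had no optimal peak. One of its annotated transcripts makes the gene body 62952 bp long, and that body encloses other genes. Its best ranks of 7984, 6772 and 2304 in replicates 1, 2 and 3, and 4899 in the pooled list, all belong to a peak near the start of CG42741, 137 bp upstream of that start in the pooled list, at 23042855 to 23043304 with a signal value of 108.2. Counting only peaks whose nearest start is that of twi, replicate 1 had none, and replicates 2 and 3 had 1 each, at ranks 13393 and 15865. The replicate 2 peak lay 86 bp upstream of a twi start. In the pooled list, 4 of the 5 twi peaks were nearest to CG42741 or CG9896.

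The other 3 genes were low or without a peak throughout. Doc3 (FBgn0035954, 3L, 9005196 to 9007249, plus strand) had none in replicate 1, and its best ranks were 10033 in replicate 2 and 10248 in replicate 3. Its best pooled peak, at 9004818 to 9005267, lay 153 bp upstream of the start at rank 18717, with a signal value of 43.5. bap (FBgn0004862, 3R, 21388880 to 21390449, plus strand) ranked at best 18919, 21738 and 11979 in replicates 1, 2 and 3, and its only pooled peak, at 21387064 to 21387513, ranked 24829 with a signal value of 35.9. lbe (FBgn0011278, 3R, 21441577 to 21446537, minus strand) had no peak in replicate 1 or in the pooled list, and ranked at best 17435 in replicate 2 and 11106 in replicate 3. None of the 3 had a peak within the top 3688 of any replicate. A peak absent from these lists says only that it was not among the 30000 highest, since the read depth behind them is unknown.

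Replicate support of the 8 optimal peaks was set beside that of all 3688. All 3 replicates held 4 of the 8 peaks within their top 3688 (50%), against 2072 of all optimal peaks (56.2%). These were zfh1 peak 1 and Mef2 peaks 1, 3 and 4. Another 3, tin peak 1, Mef2 peak 2 and nau peak 1, were held by 2 replicates (37.5%, against 30.5%), and mid peak 1 by 1 replicate (12.5%, against 12.3%). By replicate, 7 of 8 were held by replicate 1 (87.5%, against 85.7%), 7 of 8 by replicate 2 (87.5%, against 83.7%) and 5 of 8 by replicate 3 (62.5%, against 72.4%). The tin, nau and Mef2 peak 2 records are those missing from the top of replicate 3. Counting Mef2 peaks 1 and 4 as 1 region leaves 3 of 7 regions held by all 3.

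**Figure D4:**
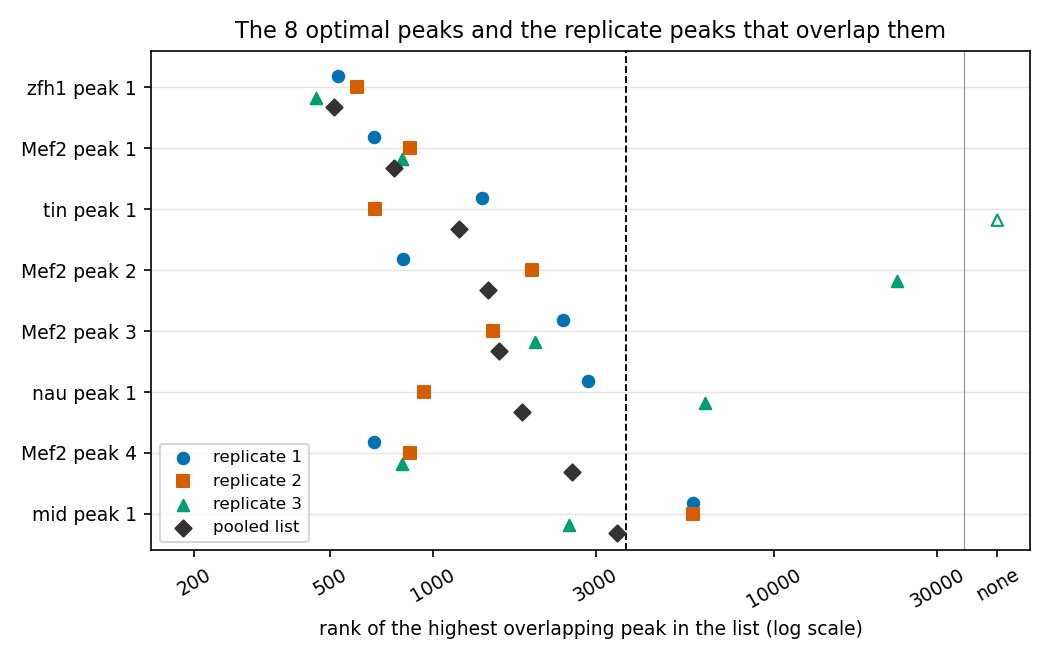
Rank of the highest-ranked overlapping peak in each replicate list for each of the 8 optimal peaks, 1 peak a row, with its own rank in the pooled list, on a horizontal log axis with the highest-ranked peaks to the left; the dashed line marks rank 3688, and an open symbol at "none" stands for no overlapping peak. Replicate 3 lies far to the right of the other two replicates at Mef2 peak 2 (22925), has no peak at tin and lies to their left at mid (2499); at Mef2 peak 4 the replicate points are those of the overlapping Mef2 peak 1.

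Below the optimal threshold, 71 pooled peaks of the 10 genes overlapped no optimal peak. All 3 replicates held 22 of them (31.0%), against 27.1% of all 25262 such peaks. For Mef2 this was 9 of 24, for zfh1 5 of 14, for mid 4 of 17 and for H15 0 of 5. Replicate 3 differed from the others in what it added. Of its 106 peaks of these genes, 48 overlapped a peak of replicate 1 or 2 (45.3%, against 48.9% of all its peaks), while for replicate 1 it was 47 of 62 (75.8%, against 75.9%) and for replicate 2 it was 59 of 84 (70.2%, against 77.2%). Sharing in replicate 3 varied between the genes: 23 of 28 Mef2 peaks, 5 of 7 zfh1 peaks and 3 of 5 nau peaks were shared, but 9 of 23 mid peaks, 3 of 18 H15 peaks, 3 of 16 twi peaks and 1 of 6 lbe peaks. H15 also had few shared peaks in the other replicates, 2 of 5 in replicate 1 and 2 of 6 in replicate 2. Replicate 3 thus held more peaks of these genes and a smaller shared portion of them, and for all peaks of replicate 3 that portion was small as well.

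By position, 2 of the 8 optimal peaks lay in a promoter, within 500 bp of an annotated start (25%), against 1960 of all optimal peaks (53.1%). These were the tin and nau peaks. Introns held 4 (50%, against 32.3%), an exon 1 (12.5%, against 1.68%) and intergenic sequence 1 (12.5%, against 12.8%). The median distance from the summit to the nearest start was 2545 bp, against 399 bp for all optimal peaks. Of the 4 intron peaks, 3 belong to Mef2, and 2 of those overlap each other. In the pooled list 10 of 81 peaks of these genes were in promoters (12.3%), against 28.6% of all pooled peaks, and 29 were intergenic (35.8%, against 19.5%). The same was seen in each replicate, with promoter shares of 12.9, 15.5 and 5.66% in replicates 1, 2 and 3, against 30.2, 32.9 and 17.6% of all peaks. The genes' long territories go with this, and their part in the result was not tested. The promoter counts of the pooled and replicate lists include peaks in the twi body that lie at starts of other genes. In the pooled list these ranked 4899, at CG42741, and 16766, at CG9896.

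The 201-base windows of the 8 optimal summits were searched for 12 motifs on both strands. The homeodomain core TAATTA was in 0 of the 8 windows, against 18.0% of all optimal windows and 12.8% of relaxed-only windows, those of pooled peaks that overlap no optimal peak. The longer form TTAATTA, which contains it, was in 0 of 8, against 11.3% of all optimal windows. The MEF2 box, a motif of 10 letters bound by Mef2, was in 0 of 8, against 12.9%. The E-box CATATG was in 1 window, that of tin, against 8.22%, and CACATG in 1, Mef2 peak 2, against 8.19%. The T-box core AGGTGT was in 1, zfh1 peak 1, against 5.94%, and the E-box CAGGTG, of the kind bound by Zfh1, in 1, Mef2 peak 1, against 5.42%. No window held TCAAGTG, a site of the Tinman class, against 3.44%, or GAGAGAG, a site of GAGA factor, against 5.34%, or TATCGATA, the DNA replication-related element, against 3.42%. Of the comparison sequences of A and T bases alone, TTTAAA was in 0 of 8, against 30.3%, and AATATT in 2, Mef2 peaks 1 and 3, against 28.1%. The G and C content of the windows ran from 35.8% at zfh1 peak 1 to 48.8% at Mef2 peak 3, against a median of 36.3% in all optimal windows (quartiles 30.8 and 42.3%), so that 7 of the 8 were above that median. Within 50 bp of the summit the AGGTGT and CAGGTG matches were no longer included, and the peaks with CATATG and CACATG drop out when replicate 1 or 2 is left out. A motif here is a match of letters and not a shown site, and letters that are absent from a window say nothing of what bound there.

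The loci around these genes were examined next, since bap and lbe share the NK homeobox cluster with tin, Doc3 shares a locus with Doc1 and Doc2, and H15 lies beside mid. The cluster from tin to slou on 3R, 21377977 to 21558182, held 5 optimal peaks, of which 1 was that of tin. The others were nearest to sp3, at rank 51, to Fancm, at rank 2775, and to C15, a homeodomain gene of the cluster, at ranks 2840 and 3623. lbl, the companion gene of lbe, had 4 pooled peaks with a best rank of 5611, and slou, a muscle identity gene, had 4 with a best rank of 6475, and neither had an optimal peak. At Doc3 to Doc1 on 3L, 9004196 to 9046042, there were 4 optimal peaks, nearest to Doc2 at rank 2067, CG5194 at 2349, Doc1 at 2788 and Argk2 at 3106. Doc3 was thus the one of the 3 Doc genes without an optimal peak, and the closest one, at CG5194, lay 4690 bp away. From H15 to mid on 2L, 5403280 to 5468610, there were 0 optimal and 11 pooled peaks, or 1.68 pooled peaks per 10 kb, against 2.24 over all arms. Pooled peaks numbered 1.17 per 10 kb in the cluster from tin to slou and 5.02 at Doc3 to Doc1. As a scale for the optimal counts, the 6 arms held 3688 optimal peaks in 133880608 bp. The cluster from tin to slou spans 180.206 kb, Doc3 to Doc1 41.847 kb and H15 to mid 65.331 kb. The closest optimal peak was 10069 bp from bap, at tin, 41425 bp from lbe, at Fancm, 16053 bp from twi, at CG9890, and 60339 bp from H15, at mid.

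Among 39 other transcription factor genes of mesoderm and muscle, listed by role, 13 had an optimal peak, against 19.9% of all genes. All 39 had a pooled peak, against 62.6% of all genes, and the pooled share was not computed by territory length. Among those in the class of longest territories, 9 of 27 had an optimal peak, against 32.9% of all genes of that class. The roles are those of the list and were not checked here, and a gene may act in other tissues too. Of the genes listed as cardiac, 3 of 7 had an optimal peak (Doc1, Doc2 and org-1). Of those listed as early mesoderm it was 1 of 4 (emc), and as visceral mesoderm 1 of 5 (bin). Of those listed as somatic muscle it was 8 of 23 (C15, Poxm, sr, Six4, mirr, Ptx1, Pdp1 and jumu). The highest peaks were those of bin, a forkhead factor of the gut muscle, at rank 220 and 1278 bp upstream of its start, and of org-1, a T-box factor, at rank 435 and 347 bp upstream. Poxm, a paired-domain factor, followed at rank 519, 423 bp upstream of its start, and Pdp1, a basic leucine zipper factor that acts in muscle, at rank 540 in an exon, with 5 optimal peaks in all. mirr, a homeodomain factor, had its best peak at rank 894, 40327 bp upstream of its start, and jumu, a forkhead factor, at rank 1190 in an intron. In the pooled list bin and org-1 ranked above zfh1 and the rest below it, but the order near zfh1 differed between replicates. Poxm ranked 420, 660 and 438 in replicates 1, 2 and 3, and Pdp1 281, 364 and 1110, against 527, 599 and 456 for zfh1.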

How the data were processed

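Anti-GFP ChIP-seq peaks of 3 biological replicates of CG4328-GFP embryos were used. According to the deposited text notes, the authors called every replicate list on 1 library's alignments with a control and the pooled list on all 3, and derived the optimal list from them. For the aligner, the peak caller and the threshold, nothing is given in the sources used here. The signal value is a deposited score on an unstated scale, used to rank peaks of the same list. Also deposited was −log10 q, which is the authors' value and was used only to describe some of the peaks. The 5 dm6 lists were used, and the dm3 lists were not used here. No read counts were used, and library depth and counting error are therefore unknown.

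Summits were assigned to 13945 protein-coding genes of BDGP 6.54 (Ensembl release 115) on the release 6 sequence. Promoter means within 500 bp of a start. Other summits were classed as exon, intron or intergenic, in that order. Overlap means at least 1 bp. Support means overlap with the top 3688 of a replicate list. It is a rule by rank, and the same rank can stand for different −log10 q in different lists. Python 3.11.15, numpy 2.4.6, pandas 2.3.3 and matplotlib 3.10.9 were used, and the assignments were tested on simulated data. With 1 group there is no comparison of groups, and no p-value was computed; the spread is that of the 3 replicates. No 2 replicate lists shared a record. All 10 genes are named, the best optimal peak of each (or the best pooled peak) is described, and so are up to 6 of the other genes with the highest optimal peak, genes that share a cluster with a member and genes nearest to a peak within a member's body. The remaining Mef2 peaks and the other neighbours were named after their values were seen. The members, the lists and the motifs were chosen with earlier results of these data known.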

Additional observations from a re-analysis of the deposited data

How the results depend on the processing

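Most values kept within 1.5 times the reported ones, 5 genes, 8 optimal peaks, 4 peaks held by all 3 replicates and 2 promoter peaks. Over all alternatives, 26 of these values stayed within it and 19 moved, and the cause was not tested. With gene body alone as the rule, 2 genes had 5 peaks, 0 of them in promoters, and with summits within 500 bp of a member's start, 2 genes had 2 peaks, 0 of them held by all 3 replicates. With 250 bp as the promoter distance, 1 peak was in a promoter. With the whole relaxed lists in place of the top 3688, 7 peaks were held by all 3 replicates. In the whole pooled list 9 genes had a peak, and in the whole list of replicates 1, 2 and 3 it was 8, 10 and 10. Each replicate was also left out in turn, and an optimal peak then had to lie in the top 3688 of both others. The reported counts of genes, peaks and promoter peaks did not have this requirement. Under it, genes with a peak numbered 2 to 4, peaks 4 to 7 and promoter peaks 0 to 2. Peaks held by both other replicates, again 4 to 7, are the same peaks by construction. That count is no separate result, though the 26 and 19 above include it. TAATTA was in 0 windows in every alternative run. Within 50 bp of the summit, AGGTGT and CAGGTG were in 0 windows and AATATT in 1, within 150 bp GAGAGAG was in 1, and CATATG and CACATG were in 0 without replicate 1 and in 0 without replicate 2. No paired analysis was possible because the labels give 1 group. Depth is unknown, so no peak absent from a list can be called unbound.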
